A study of Mus musculus with 4 samples.

Results

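The genes described here encode the splicing machinery and the hnRNP proteins that coat nascent RNA. They were chosen by symbol, as probe sets annotated to a single gene. The symbol had to start with Hnrnp, Srsf, Snrp, Sf3a or Sf3b, and Snrpn was left out. The rule itself used no measured value, but it was chosen with earlier results of these data known. The rule found 139 of 35041 single-gene probe sets, 114 on the Affymetrix array design MOE430A and 25 on MOE430B, for 46 of 18193 genes. Messenger RNA of E18.5 mouse lung was hybridised to 4 arrays, 1 per genotype on each design. The genotypes were wild type (BALB/c) and a double knockout null for both Myf5 and Myod1 (BALB/c, Myf5-/-:MyoD-/-), which lacks the transcription factors that make skeletal muscle. The series title gives its subject as the part of skeletal muscle in the development of the lung. The sources used here do not say how many embryos gave the RNA of an array.

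Splicing removes introns from pre-mRNA. The U1 snRNP marks the 5′ end of an intron and the U2 snRNP its branch point, each built on a ring of Sm proteins, and the SF3A and SF3B complexes hold the U2 snRNP on the branch point. SR proteins bind exons and recruit these particles, whereas many hnRNP proteins compete with them or cover sites in the RNA, so that the balance between the families sets which exons are used. Nearly every cell makes these proteins, so that a lung sample reads them in all its cell types at once.

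No replicate array exists for either genotype, so differences are given without a test, and the number of arrays limits the precision of every value. Ratios are given as log2 of the array labelled double knockout over that labelled wild type, within a design. Signals are in arbitrary units, wild type first and double knockout second, with the second rescaled by 1.004 on MOE430A and 1.008 on MOE430B. A probe set counts as passing when at least 1 of its 2 signals is at or above 787.4 on MOE430A or 855.1 on MOE430B, the medians of all signals. A probe set with 1 signal under that median passed only through the other array, so the filter fixed its direction. The nearest thing to a replicate error is the SD of a single log2 ratio from 100 probe sets carried by both designs, 0.24. It compares designs and not replicate arrays of a genotype, and it leaves out the mean shift between the designs. It was taken without the passing filter, with signals below the 25th percentile raised to it, so it may be too small as an error. The same 100 read on average 0.22 lower on MOE430B than on MOE430A on the log2 scale, an offset to be kept in mind wherever the designs are set side by side.

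Of the targeted genes on MOE430A, Myf5 read 110.5 and 8.944, both below the floor (the 25th percentile of signals, 283.8), and Myod1 read 85.0 and 1081, which goes against the labels. On MOE430B Myod1 read 337.2 and 607.2, again higher in the array labelled double knockout, with both signals under the passing filter. The sources used here do not say whether these probe sets lie in deleted sequence, and every direction below rests on the labels. Of 12 listed skeletal muscle genes, 4 were measured on MOE430A, with a median of -0.9. At least 1.5-fold lower were 3, beside 6.32% of all genes: Mylpf (-1.69, a bound with its second signal below the floor), Myl1 (-1.07) and Acta1 (-0.73). Ckm, the brightest, had 0.27 there and 0.14 on MOE430B. Xist read 7600 and 2749 by its probe set with the highest signal and Eif2s3y on the Y chromosome 13.07 and 502.3 on MOE430A, and the sex of the embryos, which the labels do not give, cannot be told apart from genotype. The tissue label fitted the surfactant genes, with Sftpc at 78525 and 113337, and on MOE430A all 9 measured genes of the alveolar type II list read higher in the double knockout array, with a median of 0.45. Cardiac muscle genes were bright too, with a sum of 226590 and 242758 on MOE430A, beside 190064 and 260958 for the alveolar type II list. Of the 8 cardiac genes 4 lay below 0 and 4 above. On MOE430A the lymphoid marker list had 11 of 13 measured genes lower, none listed at 0 and 5 below the floor in the array labelled double knockout (Rag1, Cd3d, Cd3e, Cd3g and Ikzf1), and a summed signal of 33735 and 6804. The proliferation list had 21 of 22 lower and a sum of 91878 and 61361. Lymphoid and dividing cells make splicing factors too, and in a bulk sample fewer cells of a type and less RNA per cell cannot be told apart. The part of these cells in the values below was not tested. In the control probe sets for RNA integrity, the Gapdh 3′ to 5′ ratio was 0.79 and 0.85 on MOE430A and 0.75 and 0.81 on MOE430B, and the 18S probe sets read a median of 3.91 and 3.13 times higher in the arrays labelled double knockout.

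The splicing genes had ratios centred close to 0. On MOE430A, 100 of the 114 probe sets passed the signal filter, covering all 43 genes read there. Of these, 7 read lower by at least 1.5-fold in the double knockout array, where 7.19% of all 11233 passing single-gene probe sets were, and 7 were at least 1.5-fold higher, where 6.38% of all were. Over all their passing probe sets the shares, 7% in each direction, lie near that background, and how they read by signal strength and by gene is given further on. The only probe set past 2-fold was 1 of Hnrnpf, at 2.08-fold higher, against a background of 1.81% higher and 1.94% lower. The median log2 ratio of the 100 probe sets was -0.08, with the middle 50% from -0.3 to 0.12, beside a median of 0 over all passing probe sets. Below 0 lay 59 of the 100 probe sets, beside 50.4% of all, and above 0 lay 41, beside 49.6%.

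On MOE430B, 16 of 25 probe sets passed, for 14 genes. None was at least 1.5-fold lower, against a background of 15.4%, and 2 were at least 1.5-fold higher, Hnrnpd and Sf3a1, against 15.5%. The Hnrnpd probe set passed the filter only through its double knockout signal. None was past 2-fold, against 7.33% lower and 7.71% higher over all. Below 0 lay 9 of 16, beside 54.1%, and above 0 lay 7, beside 45.9%. The median was -0.05 there, the same as over all passing probe sets of that design. The ratios of all probe sets spread more widely on MOE430B (SD 0.77) than on MOE430A (0.46), and so did those of the splicing genes (0.47 and 0.37). Srsf12, an SR protein that represses exons, was the gene with no passing probe set, with signals of 97.35 and 9.742, both below the floor of 278.1. In all, 116 probe sets passed for 45 genes. None of these had a signal below the floor of its design, the 25th percentile, so that no ratio here is a bound.

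Splicing probe sets were bright, and 50 of the 100 lay in the brightest 25% of passing MOE430A probe sets, where fewer probe sets of any kind were past 1.5-fold. Of these, 3 (Hnrnpd, Hnrnpr and Snrpd3) were at least 1.5-fold lower, beside 3.42% of all 2809 probe sets of that kind, and 4 (Hnrnpab, Hnrnpf, Sf3b3 and Snrpg) at least 1.5-fold higher, beside 3.17%. The shares were 6% and 8% of 50 probe sets, above the background of equally bright probe sets, and they rest on those 7 probe sets. Below 0 lay 31 of the 50, with a median of -0.08, beside 1328 of 2809, with a median of 0.02. Whether these differences exceed the error between arrays was not tested. On MOE430B, 9 of the 16 lay in the brightest 25% of 9314, and none was past 1.5-fold, beside 6.05% lower and 3.01% higher.

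**Figure D1:**
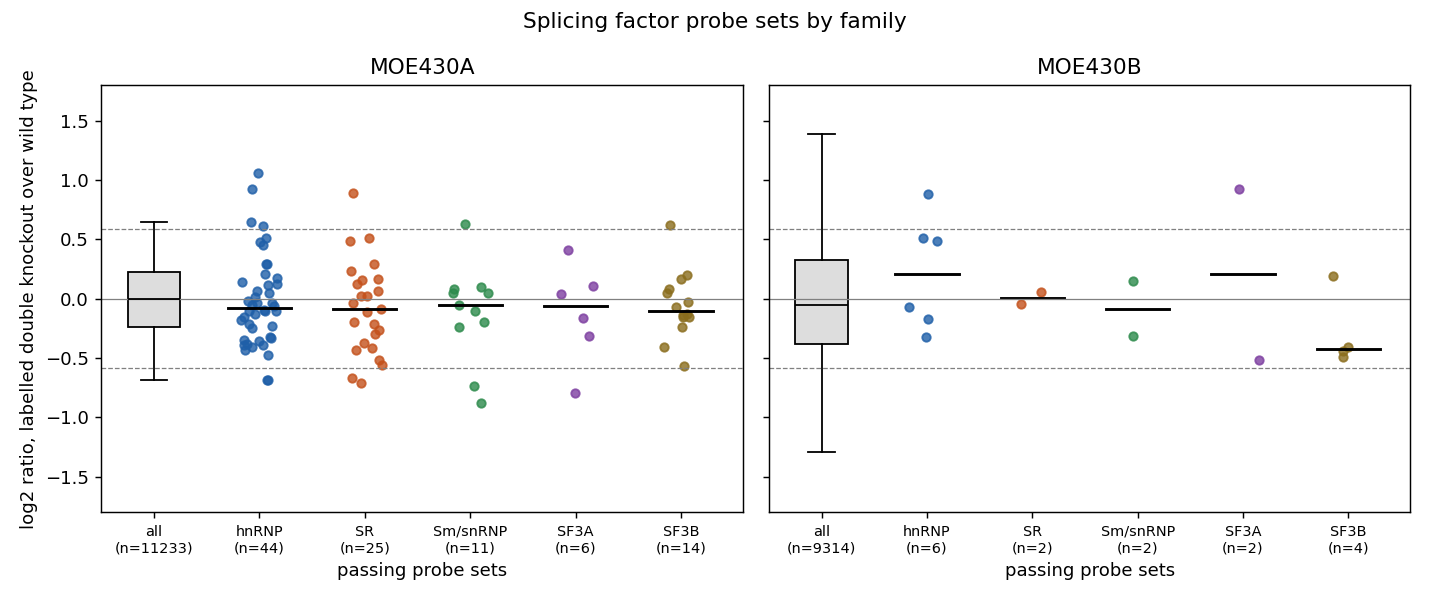
Each point is 1 passing probe set of the splicing families on MOE430A (left) and MOE430B (right), plotted by its log2 ratio of the array labelled double knockout over that labelled wild type. Black bars are family medians, the grey box spans the middle 50% of all passing probe sets with whiskers at their 5th and 95th percentiles, and dashed lines mark 1.5-fold. The medians of the 5 families on MOE430A lie between -0.1 and -0.06, close to the line at 0. On MOE430B, with 2 to 6 passing probe sets per family, they are 0.21 (hnRNP), 0.01 (SR), -0.08 (Snrp), 0.2 (SF3A) and -0.43 (SF3B).

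The promoters of 4 genes are shown, 2 of Sm ring proteins whose probe sets lay at opposite ends of that family and 2 of hnRNP genes whose own probe sets gave opposite values. Each is the RefSeq promoter window of 300 bases, most of it upstream of the annotated start, build GRCm38.p6, on the strand of the gene. Capitals mark the GC box GGGCGG, the CCAAT box CCAAT, the ETS site CCGGAAG, the TATA box TATAAA and the E-box CACGTG, each on either strand.
Snrpd3, chr10:75517792-75518091, plus strand: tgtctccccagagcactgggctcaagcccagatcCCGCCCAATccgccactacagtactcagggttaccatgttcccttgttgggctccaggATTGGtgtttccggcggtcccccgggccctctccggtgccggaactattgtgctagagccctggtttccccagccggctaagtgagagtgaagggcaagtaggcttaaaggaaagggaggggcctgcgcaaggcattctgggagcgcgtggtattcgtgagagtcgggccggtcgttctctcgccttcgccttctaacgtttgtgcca
Snrpg, chr6:86371290-86371589, plus strand: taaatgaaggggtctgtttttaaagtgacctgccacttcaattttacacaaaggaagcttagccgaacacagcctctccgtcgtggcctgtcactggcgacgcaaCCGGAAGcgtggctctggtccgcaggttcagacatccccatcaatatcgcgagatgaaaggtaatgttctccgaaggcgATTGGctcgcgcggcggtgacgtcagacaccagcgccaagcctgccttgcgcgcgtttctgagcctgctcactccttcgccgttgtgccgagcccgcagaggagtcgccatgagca
Hnrnpd, chr5:99978889-99979188, minus strand: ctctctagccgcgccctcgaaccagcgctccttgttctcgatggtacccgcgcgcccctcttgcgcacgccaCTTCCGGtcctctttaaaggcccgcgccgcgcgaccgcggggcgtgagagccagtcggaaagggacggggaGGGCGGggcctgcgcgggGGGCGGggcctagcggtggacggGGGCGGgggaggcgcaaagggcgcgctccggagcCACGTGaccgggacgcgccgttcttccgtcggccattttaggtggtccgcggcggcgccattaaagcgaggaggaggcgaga
Hnrnpu, chr1:178337766-178338065, minus strand: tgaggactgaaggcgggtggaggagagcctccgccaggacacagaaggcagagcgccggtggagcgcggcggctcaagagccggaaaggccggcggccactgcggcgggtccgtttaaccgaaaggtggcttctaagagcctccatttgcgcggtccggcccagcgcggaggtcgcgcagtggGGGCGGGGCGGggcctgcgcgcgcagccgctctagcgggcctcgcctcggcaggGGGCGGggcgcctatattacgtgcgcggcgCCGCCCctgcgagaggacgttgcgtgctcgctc
The windows share a high content of CG dinucleotides and differ in their motifs. Snrpd3 held 18 CG dinucleotides, a GC box that overlaps 1 of its 2 CCAAT boxes, and no ETS site. Snrpg held 26, with 1 CCAAT box and 1 ETS site. Hnrnpd held 45, with 3 GC boxes, 1 ETS site and 1 E-box, and Hnrnpu held 41, with 4 GC boxes, 2 of which overlap. None of the 4 held the TATA letters.

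Many CG dinucleotides and a GC box were common among the splicing genes. RefSeq windows matched 41 of the 46 genes, with 54 windows in all. Their median number of CG dinucleotides was 26, beside 13 over 21262 windows of protein-coding genes and 7 over all 32851 windows. A GC box was found for 29 of the 41 genes (70.7%), beside 49.2% of 17491 protein-coding genes, and in 35.7% of all windows. The ETS letters were found for 15 of 41 (36.6%), beside 12.9% of protein-coding genes and 8.86% of all windows, and the CCAAT box for 21 of 41 (51.2%), beside 42.3% and 37.4%. The TATA letters were found for 5 genes (12.2%), beside 14.8% and 13.6%, and the E-box for 4 (9.76%), beside 8.91% and 7.15%. These are matches of letters, and no binding was measured here.

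The hnRNP genes were the largest family, with 50 probe sets on MOE430A, 44 of them passing for 18 genes, and a median log2 ratio of -0.08. Below 0 lay 27 of the 44 (61.4%, beside 50.4% of all passing probe sets), 2 of them at least 1.5-fold (4.55%, beside 7.19%), and 4 were at least 1.5-fold higher (9.09%, beside 6.38%). The family median on MOE430B lay on the other side of 0, at 0.21 over 6 passing probe sets. The lowest values were those of Hnrnpr, a relative of the hnRNP Q protein, and Hnrnpd, the AU-rich element binding protein AUF1. Hnrnpr read 4680 in wild type and 2902 in the double knockout, a log2 ratio of -0.69, by its probe set with the highest signal. Its other passing probe sets on that design, at 2517 and 2352 and at 1985 and 2192, had -0.1 and 0.14, so that the lower value stood on 1 of 3 probe sets. On MOE430B Hnrnpr lay on the other side, at 1492 and 2089, with 0.49.

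Hnrnpd gave the widest disagreement between the designs. On MOE430A its single probe set read 6082 and 3788, with -0.68. On MOE430B the probe set that passed read 765.6 and 1412, with 0.88, and a further one read 11.11 and 18.67, below the floor. The one that passed had a wild type signal under the filter of 855.1. It passed only through its double knockout signal, so a lower value would not have been counted. The gene was thus past 1.5-fold in opposite directions on the designs, which was seen for 1 of the 12 splicing genes measured on both and for 23 of 1827 genes in all. Its promoter is among those printed above.

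Hnrnpu, a scaffold protein of nuclear RNA and chromatin, was split within MOE430A. The probe sets with signals of 10347 and 7963 and of 8684 and 6234 had -0.38 and -0.48, the one at 8262 and 11800 had 0.51, and the one at 807.3 and 1533 had 0.92. A further one, at 244.5 and 550.2, did not pass. In other words, 2 of its 4 passing probe sets lay on each side of 0. Hnrnpf, which binds runs of G in RNA, was also split, but there both probe sets above 0 carried the suffix _x_at. They read 2959 and 6154, with 1.06, the highest value of any splicing probe set, and 6339 and 7306, with 0.2. The probe sets without that suffix had -0.43 (6736 and 4996) and -0.1 (4312 and 4018). The suffix _x_at marks probe sets that may hybridise with other transcripts.

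Hnrnpab, an RNA-binding protein with A and B type forms, had 5 passing probe sets with log2 ratios from -0.33 to 0.64. The highest, at 30446 and 47516, was the brightest of them, those at 12419 and 9887, at 8523 and 7198 and at 12831 and 12493 had -0.33, -0.24 and -0.04, and that at 1271 and 1556 had 0.29. That highest value was 0.47 with quantile normalization and 0.48 with a loess curve removed, both under 1.5-fold. Hnrnpdl, a paralog of Hnrnpd, ranged from -0.39 to 0.61 over 4 probe sets on MOE430A. Its brightest, at 10620 and 10330, had -0.04, and its MOE430B probe set, at 4064 and 3880, -0.07. For these genes no direction can be given.

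The A and B core proteins, which package nascent RNA, stayed under 1.5-fold. Hnrnpa2b1 had -0.36 by its probe set at 11667 and 9105, and -0.41, -0.18 and 0.18 by the others. Hnrnpa1, a repressor of exons, had 0.45 (1561 and 2135) and 0.11 (3791 and 4100), both above 0. Hnrnpa0 was read on MOE430B only, at 37069 and 32891, with -0.17. Hnrnpc, which binds runs of U and keeps cryptic exons silent, had 0.29 at 11985 and 14641 but -0.35 at 1393 and 1091. Hnrnpk, the poly-C binding member, stayed within 0.23 of 0 on all 4 probe sets, from 15464 and 13182 (-0.23) to 1860 and 1919 (0.04).

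Some hnRNP genes had all their values on 1 side of 0. Hnrnpl, which binds CA repeats, read higher in the arrays labelled double knockout on both designs, with 0.48 (1580 and 2204) on MOE430A and 0.51 (723.7 and 1032) on MOE430B, both under 1.5-fold. The MOE430B probe set of Hnrnpl passed the filter of 855.1 only through its double knockout signal. A lower value would not have passed there, so the match between the designs was partly fixed by the filter. Hnrnph1, which binds runs of G, had -0.22 (6123 and 5274) and -0.33, and its paralog Hnrnph2 -0.39 (1675 and 1278). Hnrnpul2 was the member whose probe set is carried by both designs. That probe set had -0.15 on MOE430A (1050 and 946.0) and -0.32 on MOE430B (5346 and 4278), and its other probe set had -0.06. Hnrnpll, a regulator of CD45 exons in T cells, read 6408 and 6986, with 0.12, and -0.05 by its other probe set, while the lymphoid genes named above were lower in the same array. Hnrnph3, Hnrnpm and Hnrnpul1, each read by 1 probe set, had values from -0.1 to -0.02. That of Hnrnpul1 was 0 with quantile normalization.

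**Figure D2:**
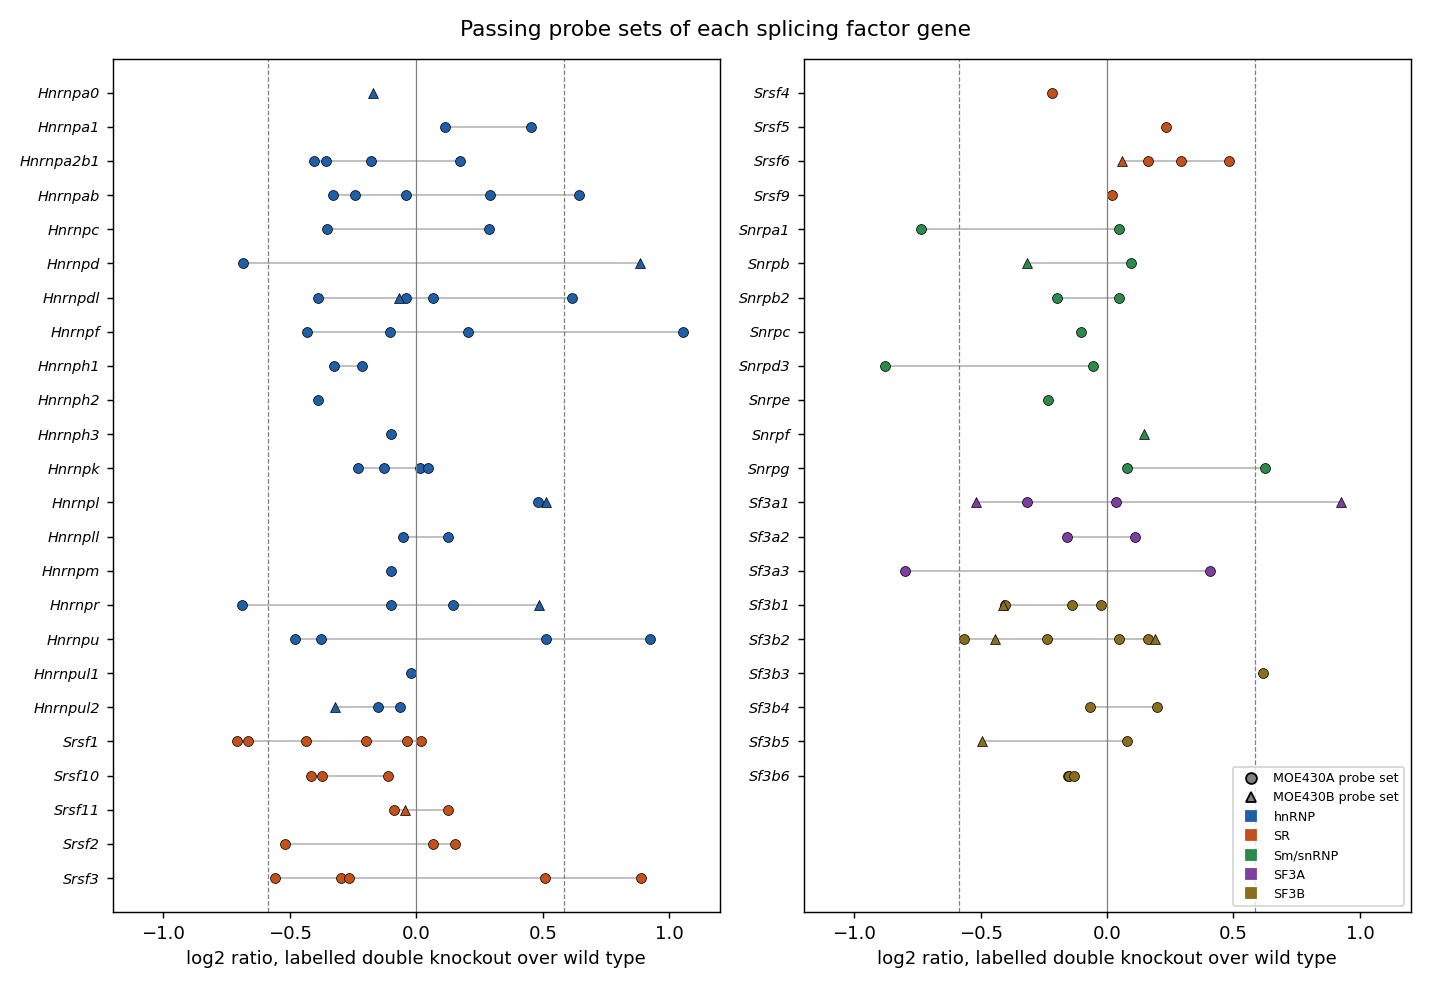
Each row is 1 gene and each point 1 passing probe set, circles for MOE430A and triangles for MOE430B, plotted by its log2 ratio of the array labelled double knockout over that labelled wild type. Grey lines join the lowest and highest value of a gene and dashed lines mark 1.5-fold. Hnrnpd and Hnrnpf have the longest lines, and Sf3b6 and Hnrnpl are among the genes whose points lie together.

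The SR proteins, which bind exons through RNA recognition motifs and carry a domain rich in arginine and serine, had 25 of 28 probe sets passing on MOE430A for 9 genes. Their median was -0.09, with 14 below 0 (56%, beside 50.4% of all), 2 at least 1.5-fold lower (8%, beside 7.19%) and 1 at least 1.5-fold higher (4%, beside 6.38%). Both lower ones belonged to Srsf1, the SF2/ASF protein. Its 6 passing probe sets had log2 ratios of -0.71 (2745 and 1681), -0.67 (3338 and 2104), -0.43 (5715 and 4229), -0.2 (4857 and 4235), -0.04 (2861 and 2787) and 0.02 (804.7 and 815.7). Thus 5 of 6 lay below 0, 2 of them past 1.5-fold.

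Srsf3, the smallest SR protein, had a probe set of each kind. The one at 677.8 and 1253 had 0.89, the highest of the family. Its wild type signal was under the filter of 787.4, so it passed only through the array labelled double knockout. The one at 1226 and 1745 had 0.51 and carried the suffix _x_at. The remaining passing ones, at 6250 and 5089, at 1748 and 1454 and at 1909 and 1297, all read lower, with -0.3, -0.27 and -0.56. Srsf2, the protein SC35 of nuclear speckles, had -0.52 by its brightest probe set (8454 and 5906), and 0.15 and 0.07 by the other passing ones. The direction of both genes therefore depends on the probe set read.

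Srsf6 and Srsf10 had all their passing probe sets on 1 side. Srsf6 read higher in the arrays labelled double knockout by 3 of 3 probe sets on MOE430A, with 0.29 (5885 and 7208), 0.48 (2798 and 3913) and 0.16 (2581 and 2889), and 0.06 on MOE430B (7248 and 7551). Srsf10, a splicing repressor when dephosphorylated, read lower by 3 of 3, with -0.42 (1724 and 1290), -0.37 (1389 and 1071) and -0.11 (1545 and 1430). All of these values were under 1.5-fold. Among genes read by 1 passing probe set, Srsf5 had 0.23 (10070 and 11846), Srsf4 -0.22 (4556 and 3919) and Srsf9 0.02 (4794 and 4856). Srsf11 had -0.09 (4431 and 4173) and 0.12 on MOE430A and -0.04 on MOE430B.

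The Snrp genes, which encode Sm ring proteins and the specific proteins of the U1 and U2 snRNPs, had 11 of 14 probe sets passing on MOE430A for 7 genes, with a median of -0.06. Here 2 of 11 were at least 1.5-fold lower, beside 7.19% of all passing probe sets, and 1 was at least 1.5-fold higher, beside 6.38%. Among the ring proteins, Snrpd3 had the lowest value of any passing splicing probe set, at 5150 and 2806, with -0.88, but its other passing probe set, at 1302 and 1252, had -0.06. Snrpg lay at the other end, with 0.63 (3760 and 5803), and 0.08 by its other probe set (9082 and 9584). Of the other ring genes, Snrpe read 10121 and 8601, with -0.23, and Snrpf on MOE430B 5412 and 5993, with 0.15. Snrpb read 6958 and 7427, with 0.09, and on MOE430B 32341 and 25999, with -0.31. All but the last of these are smaller than the SD of 0.24 from shared probe sets, and the offset between the designs was not removed. Snrpd1 and Snrpd2 were not among the genes read. The ring proteins thus lay on both sides of 0.

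Of the U2 proteins, Snrpa1 had -0.74 by 1 probe set (1609 and 966.1) and 0.05 by another (969.6 and 1002), and Snrpb2 had 0.05 (2363 and 2440) and -0.2 (2181 and 1902). Snrpc, a U1 protein that contacts the 5′ splice site, had -0.1 (6910 and 6442). For Snrpa1 and Snrpd3 alike, the value past 1.5-fold was not met by the second passing probe set. Each of these second probe sets carried the suffix _s_at, and which transcripts the probe sets read was not worked out here. A further probe set of Snrpa1, with suffix _x_at, did not pass and had -0.39 (668.5 and 508.5).

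The SF3A complex has 3 subunits, and none of them gave a single direction on MOE430A. Sf3a3 had -0.8 (1483 and 853.5) and 0.41 (973.3 and 1292), the widest gap within a gene in this complex on that design. Sf3a1 had -0.32 (1956 and 1572) and 0.04, and on MOE430B -0.52 (928.0 and 647.9) and 0.93 (1337 and 2541). Sf3a2 had -0.16 (5123 and 4590) and 0.11. The family median on MOE430A was -0.06 over 6 probe sets, but -0.32 over 3 genes when the brightest probe set stood for each.

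The SF3B complex, whose largest subunit Sf3b1 clamps the branch point, had 14 of 16 probe sets passing on MOE430A, with a median of -0.1. None was at least 1.5-fold lower, beside 7.19% of all, and 1 was at least 1.5-fold higher, beside 6.38%, that of Sf3b3, a scaffold subunit, at 2468 and 3787, with 0.62. Sf3b1 read lower by 3 of 3 probe sets on MOE430A, with -0.14 (5604 and 5086), -0.02 (3395 and 3338) and -0.41 (909.2 and 686.7), and -0.41 on MOE430B (6408 and 4819). Sf3b6, the subunit that touches the branch point adenosine, gave the closest values of any gene, -0.16, -0.15 and -0.13, at 4338 and 3893, 2907 and 2618, and 1649 and 1506. Sf3b2 ranged from -0.57 to 0.16 over 4 probe sets on MOE430A and had -0.44 and 0.19 on MOE430B. Sf3b4 had -0.07 (5853 and 5583) and 0.2. Sf3b5 had 0.08 on MOE430A (1557 and 1644) but -0.5 on MOE430B (26256 and 18627). On MOE430B the family median was -0.43 over 4 probe sets of 3 genes, beside -0.05 over all, and -0.13 over the 2 left without probe sets of suffix _x_at or _s_at. The offset of -0.22 between the designs in shared probe sets was not removed from these values.

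Agreement between the probe sets of a gene was poor, and this bears on every value above. Of the 29 splicing genes with more than 1 passing probe set on MOE430A, 9 had all of them on 1 side of 0, 6 lower and 3 higher, and 20 had values on both sides. Over all 2488 such genes, 48.7% were on 1 side, but splicing genes have more probe sets per gene, 2.97 on average beside 2.44. With 2 passing probe sets, 5 of 14 splicing genes (35.7%) were on 1 side, beside 56.7% of all such genes, and with 3, 4 of 6 (66.7%), beside 35.6%. With 4, 5 and 6 probe sets, 0 of 6, 0 of 2 and 0 of 1 were, beside 17.6%, 24.5% and 10%. Counted by pairs, 50 of 103 pairs of probe sets of 1 splicing gene (48.5%) lay on the same side of 0, beside 56.3% of 5153 pairs over all genes. Pairs of 1 gene are not independent, and genes with many probe sets weigh most. The 9 genes on 1 side were Hnrnpa1, Snrpg and Srsf6, which read higher, and Hnrnph1, Hnrnpul2, Sf3b1, Sf3b6, Snrpd3 and Srsf10, which read lower.

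The spread between probe sets of 1 gene was as large as the spread over the whole group. Within genes the SD of a log2 ratio was 0.4 over the 29 genes, beside 0.37 over all genes with several probe sets, while all 86 probe sets of those 29 genes together had an SD of 0.38. The gene medians of the 29 had an SD of 0.2, beside 0.34 over all 2488. Between the designs, 6 of 12 splicing genes measured on both lay on the same side of 0 by their brightest probe sets, beside 54.4% of 1827 genes. Hnrnpl, Srsf11 and Hnrnpdl differed by at most 0.04 between the designs, and Hnrnpd by 1.57, Sf3a1 by 1.24 and Hnrnpr by 1.18. The MOE430B probe sets of Hnrnpl and Hnrnpd passed only through the array labelled double knockout.

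**Figure D3:**
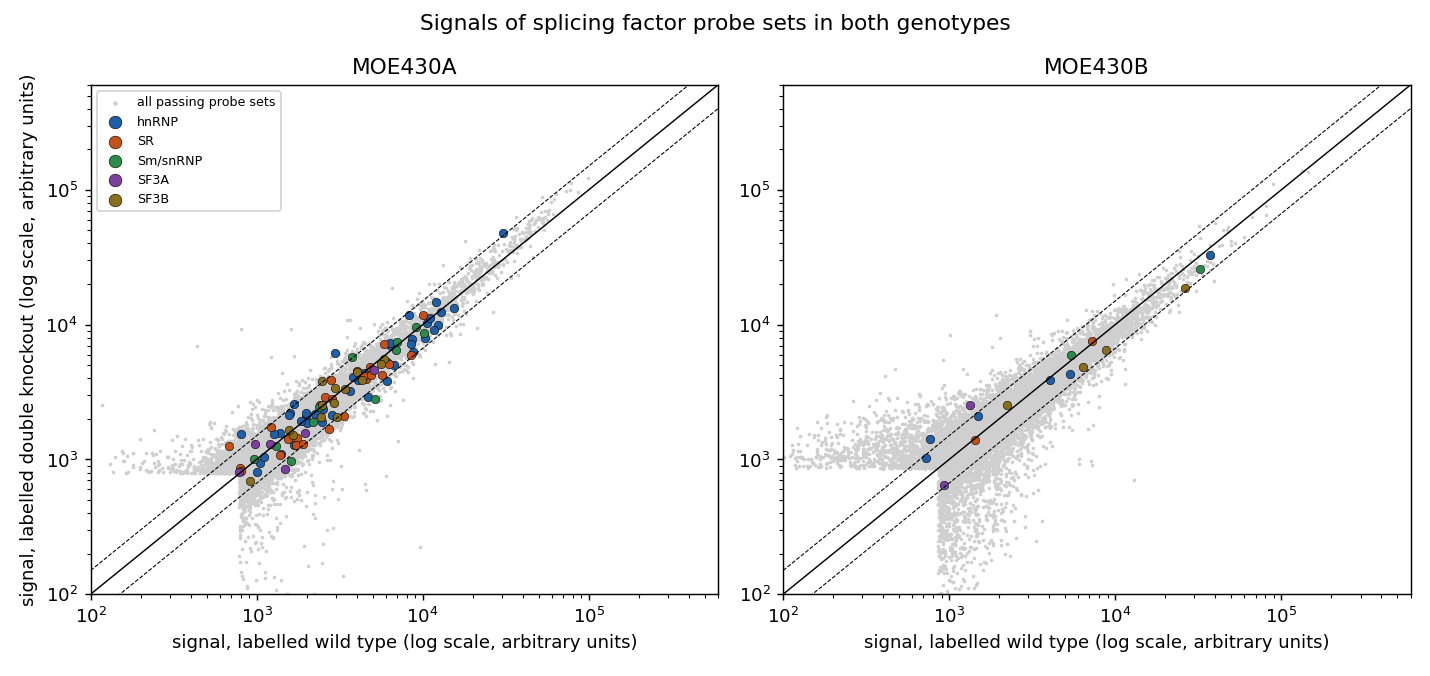
Signals of each passing probe set in the array labelled wild type (horizontal) and the array labelled double knockout (vertical), both on log scales in arbitrary units, on MOE430A (left) and MOE430B (right); signals under 100 are not drawn. Coloured points are splicing families, grey points all passing probe sets, the solid line equal signals and the dashed lines 1.5-fold. Splicing probe sets follow the solid line, with 7 of 100 beyond each dashed line on MOE430A.

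Read gene by gene, with the brightest passing probe set standing for each, 27 of 43 splicing genes on MOE430A lay below 0, beside 48.7% of all 7658 genes. At least 1.5-fold lower were 5 of them, beside 6.32% of all genes, namely Hnrnpd, Hnrnpr, Sf3a3, Snrpa1 and Snrpd3, and at least 1.5-fold higher were 2, beside 6.23%, namely Hnrnpab and Sf3b3. None was past 2-fold, beside 1.78% lower and 1.76% higher, and 16 lay above 0, beside 51.3%. On MOE430B, where 14% of 6728 genes were at least 1.5-fold lower and 14.3% higher, 6.26% and 7.07% at 2-fold, the 14 splicing genes gave 0 lower and 2 higher, with none past 2-fold, and 8 lay below 0, beside 54%, and 6 above, beside 46%. The MOE430A median was -0.1, beside 0.01 over all genes. There, with each gene read by the median of its probe sets in place of the brightest, 1 gene was left at least 1.5-fold lower and 1 at least 1.5-fold higher. The share over all genes was not computed for that reading.

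The rest of the splicing pathway was read through 9 further lists. On MOE430A, 119 of their 170 genes were measured, of which 72 lay below 0, 11 at least 1.5-fold, and 47 above, 8 at least 1.5-fold, with a median of -0.05. Over all genes of that design 48.7% lay below 0, 6.32% were at least 1.5-fold lower and 6.23% at least 1.5-fold higher. On MOE430B the median was -0.09 over 65 genes, with 6 at least 1.5-fold lower and 5 at least 1.5-fold higher, shares of 65 genes below the backgrounds given above. The lists for hnRNP-like proteins under other symbols, for further U1 and U2 factors, for the U4/U6.U5 tri-snRNP with the Lsm ring and for the Prp19 complex had medians from -0.1 to -0.05 on MOE430A.

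In these lists 2 genes on MOE430A lay further from 0 than any of the splicing genes above. Casc3, a core protein of the exon junction complex, read 1971 and 452.2, a log2 ratio of -2.12, beside -0.08 and -0.05 for the other genes measured, Pnn and Rbm8a. Cwc15, a Prp19-associated protein, read 1753 and 571.1, with -1.62, while the highest of that list, the helicase Dhx16, had 0.87. Each of Casc3, Cwc15 and Dhx16 rests on 1 passing probe set. Of the 3′ splice site factors, Rbm17 had -0.88 (2182 and 1187) and U2af2, the large subunit of U2AF, 0.76 (3777 and 6385), and on MOE430B Rbm17 had 0.53, the opposite side. Among tri-snRNP and Lsm genes, Lsm2 and Prpf3 had -0.65 each and Lsm7 0.69. On MOE430B the same list ran from Sart1 at -0.77 (1317 and 771.8) to Prpf38b at 0.96 (441.6 and 857.7), beside -0.05 for Prpf38b on MOE430A. Prpf38a, named after its values were seen, read 198.2 and 1334 there, the first below the floor and the second at least 4.8-fold higher, although it had -0.11 on MOE430A. Of the hnRNP-like genes, Tardbp, the protein TDP-43, had -0.59 (4333 and 2881) by the brightest of 4 probe sets that ran from -0.59 to 0.81, and Pcbp2, which binds runs of C, had 0.44 on MOE430A (13834 and 18736) but -1.27 on MOE430B (1999 and 831.5).

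The list of SR-related proteins and SR protein kinases had the highest median of the 9 lists on MOE430A, 0.17, but -0.09 on MOE430B. Above 0 lay 15 of 22 genes on MOE430A, beside 51.3% of all genes, and 3 of 12 on MOE430B, beside 46%. At the top of the list on MOE430A stood Luc7l, a U1-associated protein, with 0.75 (1168 and 1970), 0.52 by its other probe set and 0.13 on MOE430B. Of the CLK kinases, which phosphorylate SR proteins, Clk4 had 0.6 (672.1 and 1020) and Clk1 0.52 (2431 and 3482), but Clk3 had 0.29 and Clk2 0.04. The other kinases of the list, Srpk1, Dyrk1a, Prpf4b and Srpk2, had 0.13, 0.01, -0.1 and -0.16. The splicing activator Tra2a was lower by its brightest probe set on both designs, with -0.8 (1483 and 849.5) and -1.04 (1976 and 962.2), although its 3 MOE430B probe sets ranged up to 0.72. Scaf8 had -0.87, and 0.31 by its other probe set.

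The factors that load Sm rings onto snRNA had the lowest of these medians, -0.25, and 0.27 over 4 genes on MOE430B. On MOE430A 8 of 11 lay below 0, beside 48.7% of all genes, and 1 was at least 1.5-fold lower, beside 6.32%. Phax, the export adaptor of snRNA, had -0.7 (1147 and 707.8), and Clns1a, which holds Sm proteins before assembly, 0.19, but -1.7 on MOE430B (936.9 and 287.9). Tissue-restricted regulators had a median of -0.03 over 13 genes on MOE430A, from Qk at -0.55 (6238 and 4263) to Rbfox2 at 0.46 (2194 and 3022). Beside 6.32% lower and 6.23% higher over all genes, none of these regulators was past 1.5-fold there. On MOE430B their median was -0.02 over 12 genes, and Mbnl1, a muscleblind splicing regulator, had 1.93 (424.2 and 1613), beside -0.11 on MOE430A (8886 and 8223). Minor spliceosome proteins had -0.14 to 0.74 over 3 genes, from Zmat5 to Snrnp48. Beside these, the medians of the proliferation and lymphoid lists were -0.58 and -2.94 on MOE430A, and 0.13 over 4 genes and -0.71 over 3 genes on MOE430B.

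**Figure D4:**
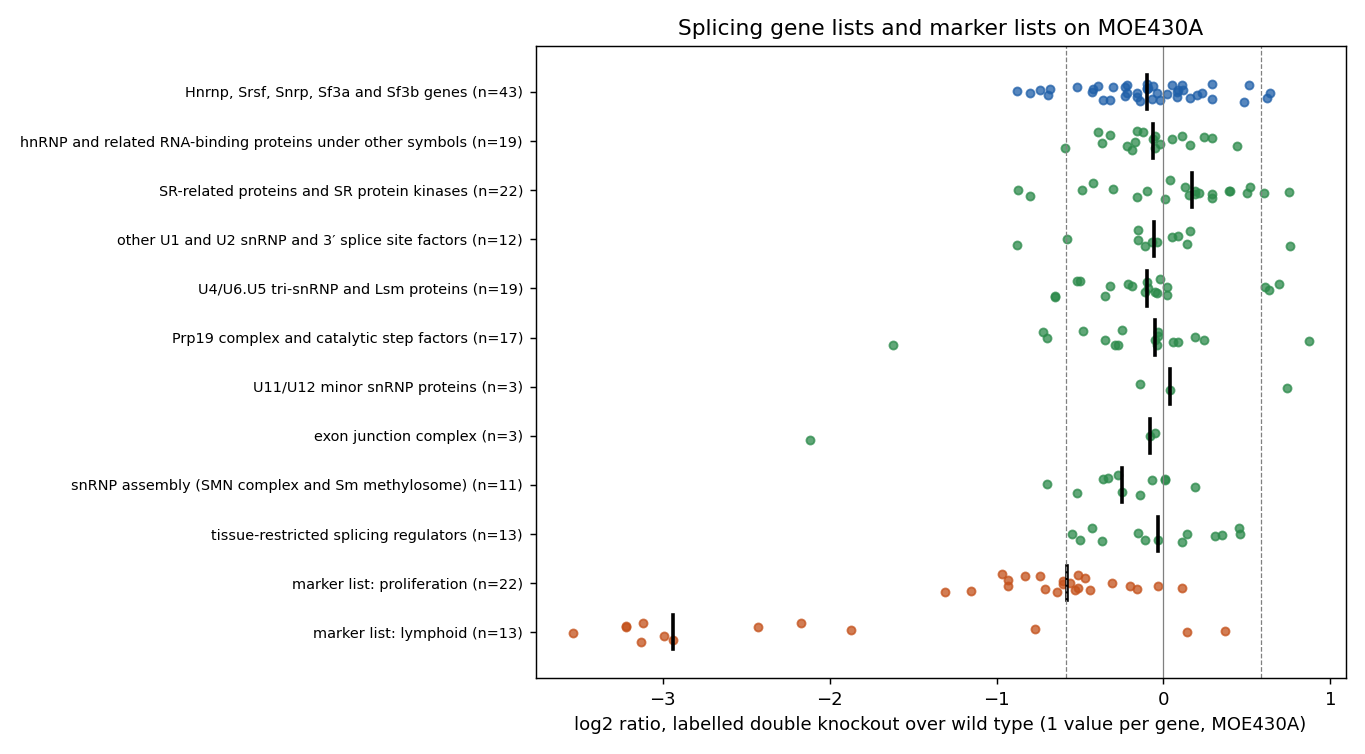
Each point is 1 gene on MOE430A, by its brightest passing probe set, plotted by its log2 ratio of the array labelled double knockout over that labelled wild type. Rows are the Hnrnp, Srsf, Snrp, Sf3a and Sf3b genes, 9 further splicing lists and 2 marker lists, black bars are medians and dashed lines mark 1.5-fold. The splicing lists have medians from -0.25 to 0.17, and the proliferation and lymphoid lists -0.58 and -2.94.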

How the data were processed

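Total RNA of E18.5 lung was labelled from 6 µg per array, per the labels' protocols. The authors deposited intensities, 1 signal per probe set on a linear scale. Per the submitters' processing notes the tool was MAS5; the sources used here name no version or settings. Trimmed by 2%, the mean of every array is 1500, as after scaling each array by itself, which assumes equal total signal in both genotypes. MAS5 signals are noisy when dim. Groups came from the sample titles. Gene names came from GEO's platform annotation (20380 with 1 gene on MOE430A, 14661 on MOE430B), and no symbol needed updating through RefSeq (GRCm38.p6). Probe sets assigned to several genes were left out, 10 of them on MOE430A with a splicing symbol, and so were 64 control probe sets per design.

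Each double knockout array was divided by 1 factor per design (1.004 and 1.008) that set the median ratio to 1. Filter and floor were the 50th and 25th percentiles of the signals. No test was possible. Counts past 1.5-fold and 2-fold, medians and ranges are given beside the same over all probe sets. A gene value is its brightest passing probe set within 1 design. Full values are given for every family's extreme genes, its brightest genes and those whose probe sets oppose each other, and for the highest and lowest gene of each further list on MOE430A. The members and lists were chosen with earlier results of these data known. Steps were tested on simulated data. Alternatives were other scalings, floors, filters and choices of probe set. Python 3.11.15 was used.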

Additional observations from a re-analysis of the deposited data

How the results depend on the processing

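With 1 array per genotype and design, no array could be left out. No paired analysis was possible because each group holds 1 array. Values were called moved when a count changed by over 1.5 times or a log2 value by 0.24, the SD from shared probe sets. Of the recomputed summary values, 211 stayed within these limits and 21 did not. On MOE430A, 7 of 100 probe sets were at least 1.5-fold lower and 7 higher. Of 43 genes by brightest probe set, 2 were higher (4.65%, beside 6.23% of all genes). The 5 lower (11.6%, beside 6.32%) stayed within the limits as a count. By the median over probe sets 1 gene was lower and 1 higher, and the share over all genes was not computed for that reading. The 1 probe set at 2-fold higher became 0 in both readings by gene and without _x_at and _s_at probe sets. The SF3A median became -0.32 by brightest probe sets. On MOE430B, the 0 lower at 1.5-fold became 1 with quantile normalization or loess and 3 with no filter, which also gave 1 at 2-fold lower. The 2 higher became 1 with the filter at the 75th percentile or the median over probe sets. The hnRNP median there, 0.21 over 6 probe sets, was -0.05 with no filter, -0.12 with the 75th percentile filter and 0.49 without _x_at and _s_at. The SF3A median, 0.2, became 0.93 with the 75th percentile filter or by brightest probe sets, and the SF3B median, -0.43, became -0.13 without _x_at and _s_at. Genes with all probe sets on 1 side went from 0 of 2 to 1 of 4 with no filter, and the SD within genes was 0.45 in place of 0.79 with the 75th percentile filter. Causes were not tested beyond the fewer or further probe sets each setting holds. Other scalings turned the sign of 2 probe sets, of Hnrnpk (loess) and Hnrnpul1 (quantile), both within 0.02 of 0. The number of arrays, and dim signals where probe sets lie near the filter, limit these values.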

Other observations

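The splicing probe sets were also read by the kind of probe set. The suffix _a_at marks probe sets that read several transcripts of 1 gene. On MOE430A, 19 of 27 passing splicing probe sets of this kind lay below 0, with a median log2 ratio of -0.2, 4 of them at least 1.5-fold lower and 0 at least 1.5-fold higher. Among 44 with the plain suffix _at, 26 lay below 0, with a median of -0.07, 2 at least 1.5-fold lower and 6 at least 1.5-fold higher. With _s_at, 8 of 16 lay below 0 (median -0.01), 1 at least 1.5-fold lower, and with _x_at 6 of 13 (median 0.04), 1 at least 1.5-fold higher. Over all genes, 1233 of 2333 probe sets with _a_at lay below 0, with a median of -0.02, 165 at least 1.5-fold lower and 139 at least 1.5-fold higher. With _at, 3648 of 7296 lay below 0, 510 at least 1.5-fold lower and 462 higher. With _s_at, 421 of 810 lay below 0, 68 at least 1.5-fold lower and 55 higher, and with _x_at 363 of 794, 65 at least 1.5-fold lower and 61 higher. The pattern was noticed after the values were seen, and it was not tested.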
